A study of Mus musculus with 3 samples.

Results

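Timd4-positive resident Kupffer cells (KCs) were followed in single-cell data of mouse liver non-parenchymal cells. They were chosen by their own transcripts. A cell was a member when it held 200 to 4000 genes, at least 2000 unique molecular identifiers (UMIs), at most 25% mitochondrial UMIs, at least 10 UMIs of Clec4f and Vsig4 together and at least 1 UMI of Timd4. It also had to hold at most 1 UMI of the other-type markers Cd3e, Cd79a and Ptprb together and fewer than 5 UMIs of the cycle genes Mki67, Top2a, Cdk1, Ube2c and Birc5. This gave 2513 members among 52335 cells in 2 libraries, 2234 of 30734 in the first and 279 of 21601 in the second.

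The first library, called the WT library here, carries WT in its table's name, is titled MCD in the labels and is named APAP0h in its header. It was tied to its sample by elimination. The study describes single cells of wild-type mice on a normal chow diet, but no source used here ties this library to them. MCD is the study's short name for a methionine-choline deficient diet, which it describes for mice of other experiments. The diet of this library could not be checked from the values. The second, the HFHC pool, holds wild-type C57BL/6J and Chil1-/- mice fed a high-fat, high-cholesterol diet for 16 weeks, with no genotype for each cell. Cells were freed by collagenase perfusion and captured with the BD Rhapsody system. Each comparison sets 1 library against 1 library, each with an unstated number of mice. Both genotypes of the pool share 1 library, so that its values mix them. Diet, genotype, capture and library cannot be told apart, no test was possible, and all intervals are exact 95% intervals that cover counting error only.

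KCs are the macrophages that reside in the sinusoids of the liver. They take up dying cells, bacteria, aged red cells and modified lipoproteins from the portal blood, and recycle the iron of haemoglobin. Embryonically seeded KCs carry TIM4, the product of Timd4, a receptor for the phosphatidylserine that dying cells expose. Macrophages that monocytes supply to an emptied KC niche gain Clec4f early and Timd4 late, which is why Timd4 is widely read as a sign of long residence. Clec4f is a C-type lectin of KCs, Vsig4 a receptor for complement fragments, Marco a scavenger receptor for bacteria and particles, and Cd5l a secreted protein of macrophages also called AIM.

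The 250 bases before the RefSeq start (GRCm38.p6) are shown for the gene that defines the members and for 2 genes spread unevenly over them, Cxcl13 and Marco. Timd4 lies on the plus strand of chr11:46810800-46844332 and its upstream stretch is chr11:46810549-46810798. Cxcl13 lies on the plus strand of chr5:95956951-95961068, with the stretch chr5:95956689-95956938. Marco lies on the minus strand of chr1:120474538-120505024, with the stretch chr1:120505025-120505274, written in the direction of the gene. Capitals mark AGGTCA, a half-site of nuclear receptors such as LXR, read on both strands (TGACCT on the other), and GGAA followed after any 2 bases by GAAA, a composite site of PU.1 and IRF factors.
Timd4: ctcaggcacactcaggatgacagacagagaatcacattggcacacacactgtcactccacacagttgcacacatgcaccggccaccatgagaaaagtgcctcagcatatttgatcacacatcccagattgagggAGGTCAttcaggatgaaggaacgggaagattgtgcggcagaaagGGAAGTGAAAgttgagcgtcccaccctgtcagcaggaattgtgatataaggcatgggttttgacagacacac
Cxcl13: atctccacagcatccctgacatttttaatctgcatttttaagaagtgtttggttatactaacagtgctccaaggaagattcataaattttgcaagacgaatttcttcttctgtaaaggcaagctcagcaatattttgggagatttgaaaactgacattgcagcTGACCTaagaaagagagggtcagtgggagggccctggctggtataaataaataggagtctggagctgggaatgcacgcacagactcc
Marco: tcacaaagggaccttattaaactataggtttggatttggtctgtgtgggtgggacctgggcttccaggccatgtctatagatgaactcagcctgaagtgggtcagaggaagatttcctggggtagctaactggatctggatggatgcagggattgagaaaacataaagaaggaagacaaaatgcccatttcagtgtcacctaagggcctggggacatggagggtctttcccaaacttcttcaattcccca
Timd4 held AGGTCA 116 bases and the composite site 72 bases before its start, Cxcl13 held AGGTCA 87 bases before its start on the other strand, and Marco held neither in this window. AGGTCA was in 14.02% of all 32851 promoters and in 12.1% of 696 promoters of genes that were at least 2-fold higher in the members than in other cells of both libraries. The composite site was in 2.30% and 2.87% of them. The motifs do not overlap each other in the Timd4 stretch, and a match describes letters only.

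Members made up 28.0% (27.0 to 29.0) of the 7976 cells of the WT library that passed the limits on genes, UMIs and mitochondrial share, whereas in the HFHC pool they were 3.23% (2.87 to 3.63) of 8630. A share of captured cells does not measure KCs per liver. The upper limit of 4000 genes acted unequally on the libraries. Only 23 cells of the WT library met the rest of the rule with more genes, against 455 of the pool, which is 62.0% of all pool cells that met the rest of the rule. With stricter markers of other types the shares were 13.8% and 1.36%, and in cells of 2000 to 6000 UMIs 19.0% and 0.716%. With no upper limit the shares were 28.1% (27.1 to 29.1) of 8043 cells and 7.77% (7.24 to 8.33) of 9442 cells. The over-limit cells of the pool had a median of 22699 UMIs and carried the same identity genes, with Clec4f at 5108, Vsig4 at 2811, Timd4 at 1049 and Cd5l at 4779 CPM, where CPM are UMIs of the gene per 1e+06 UMIs summed over the class.

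Among cells that met every part of the rule except Timd4, a Timd4 UMI was found in 2234 of 2409 in the WT library, or 92.7% (91.6 to 93.7), and in 279 of 318 in the pool, or 87.7% (83.6 to 91.1). These intervals cover counting error within each library and cannot compare conditions. Detection rises with depth, so that each cell was also thinned to 2000 UMIs. The shares were then 74.5% (72.7 to 76.2) and 72.0% (66.7 to 76.9). B cells, which should lack Timd4 in the liver, had a thinned share of 0.526% and 0.413%, and T cells 1.18% and 0.823%. The share of KCs with Timd4 stood above these background shares in both libraries.

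Members were deep cells. They held a median of 5684 UMIs, 2261.5 genes and 6.76% mitochondrial UMIs in the WT library and 11424 UMIs, 3246 genes and 7.45% mitochondrial UMIs in the pool, against medians of 3053 and 3815 UMIs in the other cells that passed. The libraries shared 756 cell index numbers, none of them of a member in both. At the edges of the rule, the 296 WT members with exactly 1 Timd4 UMI had Cd5l at 3008 and Marco at 401 CPM, and the 175 cells with 0 had 2603 and 339 CPM. The 12 pool members with 1 Timd4 UMI had Cd5l at 3204 and Marco at 199 CPM, and the 39 cells with 0 had 3268 and 130 CPM. The 45 WT members with 10 to 14 Clec4f and Vsig4 UMIs had Cd5l at 2104 CPM and Marco at 473 CPM, and the 25 cells with 5 to 9 had 1356 and 1846 CPM, so that Marco was higher outside this edge. The same edge of the pool held 5 members and 3 cells outside.

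The genes of the rule were high in the members and other KC genes were found in unequal shares of them. Clec4f was at 6085 CPM (6044 to 6126) in the WT library and 5269 CPM (5188 to 5352) in the pool, and 1 UMI or more was present in 100% and 99.6% of members. Vsig4 stood at 2874 and 2709 CPM, with a median of 16 and 27 UMIs per member. Timd4 stood at 816 CPM (800 to 831) and 915 CPM (881 to 950), with 1 to 25 UMIs per member in the WT library and 1 to 45 in the pool. These genes chose the cells and are given as a description. Cd5l was at 3371 CPM (3340 to 3401) and 4282 CPM (4208 to 4357), and C6, a component of the membrane attack complex of complement, at 1553 and 2100 CPM. Folr2, a folate receptor of resident macrophages, was at 1944 and 1537 CPM, and Cd163, the receptor for haemoglobin bound to haptoglobin, at 956 and 619 CPM.

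Markers of other lineages were present in the members at unequal levels. The rule itself limits Cd3e, Cd79a and Ptprb, so that low levels of these genes were set by the choice of cells. Among markers that it did not use, Ms4a1 of B cells was at 0.799 and 0.334 CPM in members, against 833 and 1165 CPM in B cells, and Trac of T cells at 10.2 and 8.02 CPM, against 1776 and 1780 CPM in T cells. The 5 monocyte markers summed to 275 and 147 CPM, against 6406 and 6073 CPM in classical monocytes. The 6 hepatocyte markers summed to 974 and 572 CPM, and Alb, serum albumin, was present after thinning in 53.8% and 34.4% of members beside 34.2% and 28.1% of B cells. The 5 endothelial markers summed to 422 and 390 CPM and the 4 neutrophil markers to 550 and 70.8 CPM. Of the latter, S100a9 was found in 25.6% of WT members and 3.23% of pool members, or in 11.5% and 0.358% after thinning. The part of these transcripts in the members' other values was not tested.

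**Figure D1:**
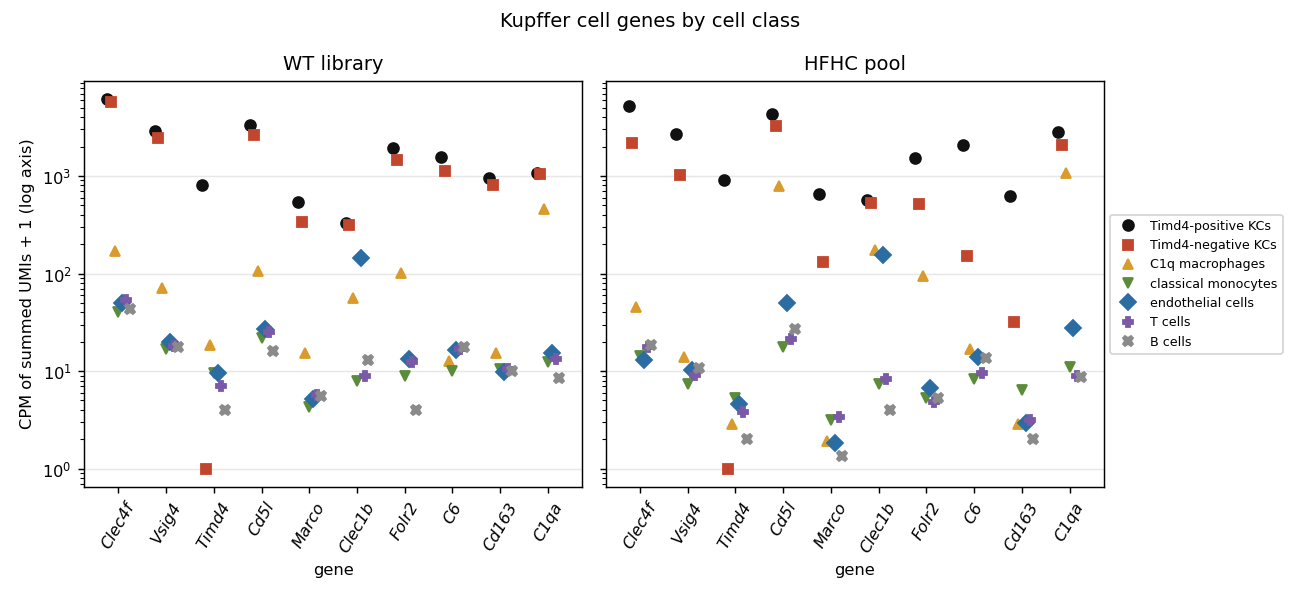
CPM of summed UMIs, with 1 added, on a log axis for 10 KC genes in 7 cell classes of the WT library (left) and the HFHC pool (right), 1 point for each class. Timd4-positive KCs (black circles) lie at or above every other class for all 10 genes. The Timd4-negative KCs (red squares) sit beside them in the WT library and below them for Clec4f, Vsig4, Folr2, C6 and Cd163 in the pool, and their Timd4 is at 0 by the rule.

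Compared with the other cells of the same library, 7.43% of the 11535 genes that reached 100 UMIs over the compared groups were at least 2-fold higher in the members of the WT library, and 9.55% of 12144 genes in the pool. At least 2-fold lower were 25.3% and 32.8%. Of the genes with a ratio in both libraries, 683 were at least 2-fold higher in both, which is 86.3% of the 791 of the WT library and 59.9% of the 1141 of the pool. Of the 15 KC surface genes on the list, Clec4f, Vsig4 and Timd4 were set by the rule. The other 12 were higher in both libraries, 11 of them at least 2-fold in the WT library and 12 in the pool, with medians of 3.11 and 4.51 on the log2 scale. The cells were chosen by genes of the same cell type, so that these counts are a description. The ratios of the pool were the larger ones. The other cells of the WT library included 427 of 5742 (7.44%) with at least 10 Clec4f and Vsig4 UMIs, against 70 of 8351 (0.838%) in the pool, and after thinning 10.1% of T cells carried a Clec4f UMI in the WT library and 3.25% in the pool. The part of these values in the size of the ratios was not tested.

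In the pool the highest ratios were those of Cxcl13, a chemokine that attracts B cells (log2 7.16), Timd4 (6.83), Cd163 (6.82), Pcolce2, an enhancer of procollagen processing (6.44), Vsig4 (6.34), Marco (6.34), Folr2 (6.31) and Clec4f (6.31). Gfra2, a coreceptor for neurturin, the ficolin Fcna, C6, Chp2, the potassium channel Kcnj16, the transporter Slc16a9 and the cohesin gene Smc1b completed the 15 leading genes. The WT library shared Timd4, Vsig4, Folr2, C6, Cd163, Pcolce2, Chp2, Kcnj16 and Smc1b with that set. It also had Cd5l (log2 3.32) and the noncoding Gm39822 among its 15. The genes Il10, Hba-a1, Hba-a2 and Hbb-bs led the WT library too, but rested on few cells. Cxcl13 of the pool did as well, with 50% of its 508 UMIs in 4 of 279 members.

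The Il10 UMIs, 180 in all, came from 93 of 2234 members, with log2 4.67 over the other cells at 13.1 CPM. Il10 encodes an anti-inflammatory cytokine. In the pool it was at 8.69 CPM (5.68 to 12.7), beside 6.91 CPM in the other cells. The globin UMIs of the WT library were still more concentrated. A single member held 231 of the 397 Hbb-bs UMIs, and with stricter markers of other types the 3 globin genes were lower in the members than in the other cells.

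Most of the listed transcription factors of KCs were higher in the members than in the other cells. Of the 18, 14 were higher in each library, 12 of them at least 2-fold in the WT library and 13 in the pool. In each library 2 were at least 2-fold lower. Of all genes, 7.43% and 9.55% were at least 2-fold higher and 25.3% and 32.8% lower. Rbpj, the factor through which Notch signals, was lower in both (log2 -1.96 and -1.79), Irf8 past 2-fold in the WT library (-1.30) and Bcl6 in the pool (-1.03). Nr1h3, which encodes the oxysterol receptor LXR alpha, was at 199 and 248 CPM (log2 2.88 and 2.90 over the other cells). Spic, a factor of iron-recycling macrophages, was at 157 and 183 CPM (3.15 and 4.07), and Id3, a regulator of KC development, at 581 and 707 CPM (1.13 and 2.18). Over Timd4-negative KCs, 0 of 18 factors in the WT library and 0 of 16 in the pool passed 2-fold in either direction. In that comparison 1.04% and 2.57% of all genes were at least 2-fold higher and 3.14% and 2.29% lower, which is few genes in a list of this size.

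Genes of uptake, iron and the lysosome separated the members from the other cells in both libraries, but less from Timd4-negative KCs. Over Timd4-negative KCs, 0 of 35 lysosome genes were at least 2-fold higher in each library and 1 was at least 2-fold lower. Of the iron and heme genes, 0 of 18 in the WT library and 2 of 14 in the pool were 2-fold higher there, and 2 and 0 lower. In that comparison 1.04% and 2.57% of all genes were at least 2-fold higher and 3.14% and 2.29% lower. In lists of this size such shares amount to few genes. Compared with the other cells, 7.43% and 9.55% of all genes were at least 2-fold higher and 25.3% and 32.8% lower. For iron and heme, 13 of 18 genes were at least 2-fold higher in the WT library and 12 in the pool. At least 2-fold lower were 4 and 3, among them Hamp, which encodes the iron hormone hepcidin (log2 -1.73 and -2.41). Slc40a1, the iron exporter ferroportin, was at 3402 and 2698 CPM and Hmox1, which opens the heme ring, at 1449 and 1549 CPM. Of the lysosome genes, 19 of 36 and 29 of 38 were at least 2-fold higher. Of the receptors and bridges for dying cells, 10 of 18 were so in each library. These include Timd4, which the rule set, and Axl (log2 2.89 and 3.64), which it did not use. Axl was at 1162 and 1030 CPM and Mertk at 366 and 477 CPM. Another 4 of the 18 were at least 2-fold lower. The lower ones were the receptor Stab1 (log2 -1.71 and -1.11), the bridging proteins Gas6 and Mfge8 and the integrin Itgb3. Genes of energy supply had mixed ratios over the other cells. Of the 13 protein genes of the mitochondrial genome, 0 were higher in the members of the WT library (median -0.21) and 13 in those of the pool (median 0.41), none of them 2-fold. Of 26 nuclear genes of the respiratory chain, 2 were higher in the members of each library, and of 17 glycolysis genes 5 were, led by the hexokinase Hk3 with log2 2.21 and 3.39. The medians were -0.33 and -0.87 for the respiratory genes and -0.24 and -0.48 for glycolysis, beside -0.35 and -0.50 for all genes.

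The share of members in which a KC gene was detected ranged widely, and such a share follows the level of the gene. After thinning to 2000 UMIs, Cd5l was detected in 99.1% of WT members and 98.6% of pool members, and C6 in 89.97% and 93.5%. Cd163 was detected in 63.3% (61.3 to 65.3) and 54.5% (48.4 to 60.4). Marco had the lowest share of these genes. It was detected in 33.2% (31.2 to 35.2) of WT members and 34.4% (28.8 to 40.3) of pool members, and 124 members held 50% of all Marco UMIs in the WT library, as did 15 in the pool. A single WT member held up to 113 Marco UMIs and a pool member up to 130, while the median member held 0 and 1.

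Among the 10 genes of highest variance over mean across the thinned members of each library, some were carried by 1 cell. In the pool the order was led by Prg4, Retnla and Alox15, of which 1 member held 158 of 161, 111 of 112 and 65 of 65 UMIs. In the WT library it was led by the globin genes Hbb-bs and Hba-a1 and by the neutrophil gene Retnlg. One WT member held 231 of 397 Hbb-bs UMIs. Retnlg was found in 10.4% of WT members and 0.717% of pool members, or in 4.97% and 0.358% after thinning. The T cell chemokines Cxcl9 and Ccl5 and the mitochondrial gene mt-Co1 were among the 10 in both libraries. Cxcl9 was present in 7.21% of WT members and 21.1% of pool members, or in 3.80% (3.05 to 4.68) and 11.5% (7.98 to 15.8) after thinning, with 50% of its UMIs in 6 and 4 cells.

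**Figure D2:**
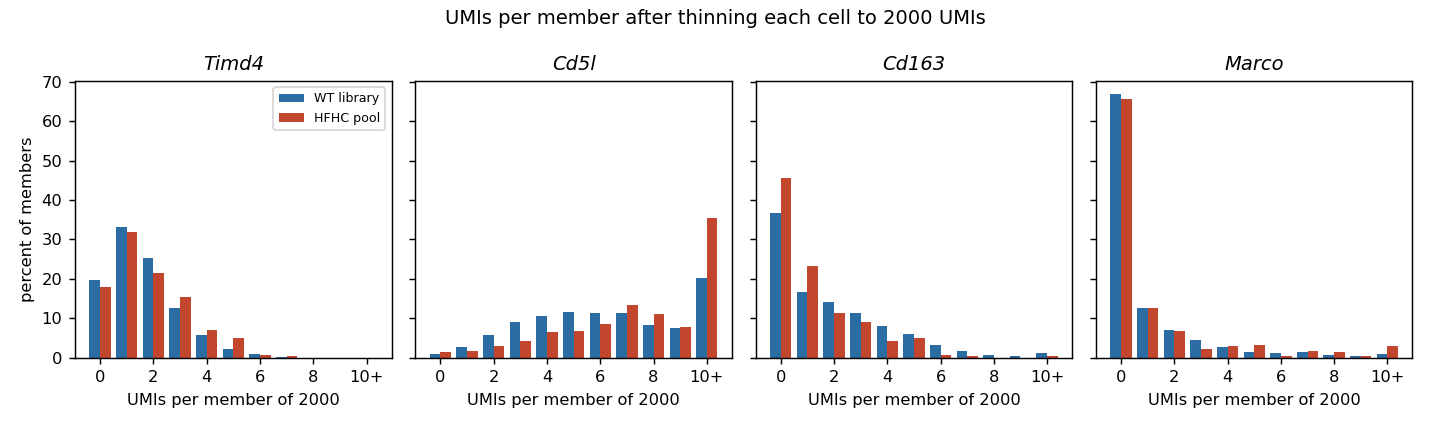
Percent of members (vertical axis) with each number of UMIs after thinning to 2000 UMIs per cell (horizontal axis, 10 or more pooled) for Timd4, Cd5l, Cd163 and Marco, in the WT library (blue, 2234 members) and the HFHC pool (red, 279 members). Cd5l is spread around a broad peak, while 66.8% and 65.6% of members stand at 0 for Marco and a tail reaches 10 or more.

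The members were therefore described by their thinned Marco UMIs, a split chosen after the values were seen. In the WT library 1493 members had none, 438 had 1 or 2 and 303 had 3 or more. In the pool these numbers were 183, 54 and 42. The 3 WT classes had medians of 5500, 5810.5 and 6547 UMIs and those of the pool 11394, 11601.5 and 11196. Among genes with at least 50 UMIs, and Marco aside, Cxcl13 had the highest ratio of the class with 3 or more over that with none, by the smaller of the ratios of both libraries. It stood at 170, 269 and 472 CPM of the thinned UMIs in the WT library and at 62.8, 148 and 560 CPM in the pool. The share of members with a Cxcl13 UMI was 16.5% (14.6 to 18.5) with no Marco and 23.4% (18.8 to 28.6) with 3 or more in the WT library, and 9.84% (5.93 to 15.1) and 31.0% (17.6 to 47.1) in the pool.

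Cxcl9, an interferon-induced chemokine for T cells, was at 50.6, 93.6 and 229 CPM in the WT library and at 169, 241 and 369 CPM in the pool, with 40 of the 139 UMIs of the highest WT class in 1 cell. Icam1, an adhesion molecule for leukocytes, was detected in 14.1% of members without Marco and 24.1% with 3 or more Marco UMIs in the WT library, and in 13.7% and 31.0% in the pool. The heat-shock gene Hspa1a was at 162, 112 and 90.8 CPM in the WT library and at 552, 546 and 155 CPM in the pool, where the highest class rests on 13 UMIs. The neutrophil chemokine Cxcl2 was at 43.5, 60.5 and 21.5 CPM in the WT library and at 325, 213 and 143 CPM in the pool, where it was detected in 17.5%, 18.5% and 16.7% of the 3 classes. Its highest classes rest on 13 and 12 UMIs. Timd4 was detected in 79.8%, 81.3% and 81.5% of the 3 WT classes and in 81.4%, 79.6% and 88.1% of those of the pool.

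The members were also divided by their own Timd4. By thinned Timd4 UMIs of 0, 1, 2 and 3 or more, Clec4f was at 6066, 6189, 6170 and 6330 CPM in the WT library, and at 5120, 5219, 5675 and 5475 CPM in the pool. Folr2 was lowest in the class with 0 in both, at 1730 CPM against 2045 CPM in the class with 3 or more in the WT library, and at 1080 against 1669 CPM in the pool. Cd9 was lowest in the class with 3 or more, at 4.10 CPM against 10.1 to 11.5 CPM in the WT library and at 25 CPM against 73.0 to 108 CPM in the pool, on few UMIs. Nr1h3 went opposite ways, at 174 against 222 CPM and at 350 against 175 CPM. The pool classes with 0 and with 3 or more held 50 and 80 cells, and differed also in Mmp12 (250 against 12.5 CPM) and Mrc1 (750 against 1169 CPM). Of the 279 pool members, 2 held 50% of all Mmp12 UMIs before thinning.

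Timd4-negative KCs, which met the rest of the rule with 0 Timd4 UMIs, were the nearest class, with 175 cells in the WT library and 39 in the pool. In the WT library 1.04% of 8563 genes were at least 2-fold higher in the members than in these cells and 3.14% at least 2-fold lower. The Timd4-negative cells were shallower there, with a median of 3132 UMIs, and held more hepatocyte marker UMIs (2050 against 974 CPM) and neutrophil marker UMIs (1047 against 550 CPM). In cells of 2000 to 6000 UMIs the shares there were 0.431% and 0.606%, and with a minimum of 20 UMIs 11.1% were lower. In the pool 2.57% of 4669 genes were at least 2-fold higher and 2.29% lower, whereas in cells of 2000 to 6000 UMIs 0% were lower and with a minimum of 20 UMIs 4.93% were higher and 7.05% lower. Their depth was close to that of the members there, with a median of 10541 UMIs.

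The 2 kinds of KC had closer levels of several identity genes in the WT library than in the pool. Timd4-negative KCs held a median of 3132 UMIs against 5684 in the members of the WT library, and 10541 against 11424 in the pool. Detection of Timd4 rises with depth, so a count of 0 may be a missed UMI more often in the WT library. The part of this in the levels was not tested. In the WT library Clec4f was at 6085 CPM in members and 5674 CPM in Timd4-negative KCs, Cd163 at 956 and 808 CPM, and Cd207, the lectin langerin, at 243 and 238 CPM. In the pool Clec4f was at 5269 and 2157 CPM, Vsig4 at 2709 and 1028 CPM, Marco at 646 and 130 CPM, Cd163 at 619 and 31.1 CPM, and C6 at 2100 and 151 CPM. Of the 12 surface genes that the rule did not use, 0 were at least 2-fold higher in the WT members and 2 in the pool members, namely Marco (log2 2.29) and Folr2 (1.57), with medians of 0.30 and 0.38. Vsig4 (1.39) and Clec4f (1.29), by which both kinds were chosen, also passed 2-fold in the pool.

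All 7 markers of monocyte-derived macrophages were at least 2-fold lower in the members of the pool, and 2 of 5 with enough UMIs in the WT library. Cx3cr1, the fractalkine receptor, was at 6.68 CPM in the pool members and 434 CPM in the Timd4-negative KCs (log2 -5.96), and at 12.4 and 36.3 CPM in the WT library (-1.60). Ccr2, the receptor that draws monocytes into tissue, was at 16.4 and 187 CPM in the pool, and Gpnmb, a glycoprotein of lipid-loaded macrophages, at 49.1 and 283 CPM. Cd207 differed between the kinds of KC in the pool, with 36.8 CPM in the members and 649 CPM in the Timd4-negative KCs of the pool (log2 -4.13). Cd5l differed less, with 4282 and 3268 CPM in the pool (0.39).

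Among the genes that went the same way in both libraries, the leading 5 in each direction, by the smaller of the 2 ratios, were Retnla, Cxcl9, Cxcl13, Akr1e1 and Gm20186 on the higher side and Itgax, Cx3cr1, Mmp13, Slamf7 and Etv3 on the lower. Retnla, a secreted protein of alternatively activated macrophages, rested on 1 cell in each library, with 298 of 303 UMIs in 1 WT member and 111 of 112 in 1 pool member. Cxcl13 was at 245 and 124 CPM in members and Timd4-negative KCs of the WT library (log2 0.96) and at 170 and 2.60 CPM in the pool, where 4 members held 50% of its UMIs. Mmp13, a collagenase, was at 15.5 and 41.3 CPM in the WT library and 9.36 and 311 CPM in the pool. Itgax, which encodes CD11c, was at 9.01 and 34.7 CPM and at 29.1 and 106 CPM. Itgax lost its difference in the WT library when at least 20 Clec4f and Vsig4 UMIs were required (log2 0.01), Slamf7 turned to 0.34 there with a mitochondrial limit of 10%, and Cxcl9 turned to -0.75 in the pool with no upper limit on genes.

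**Figure D3:**
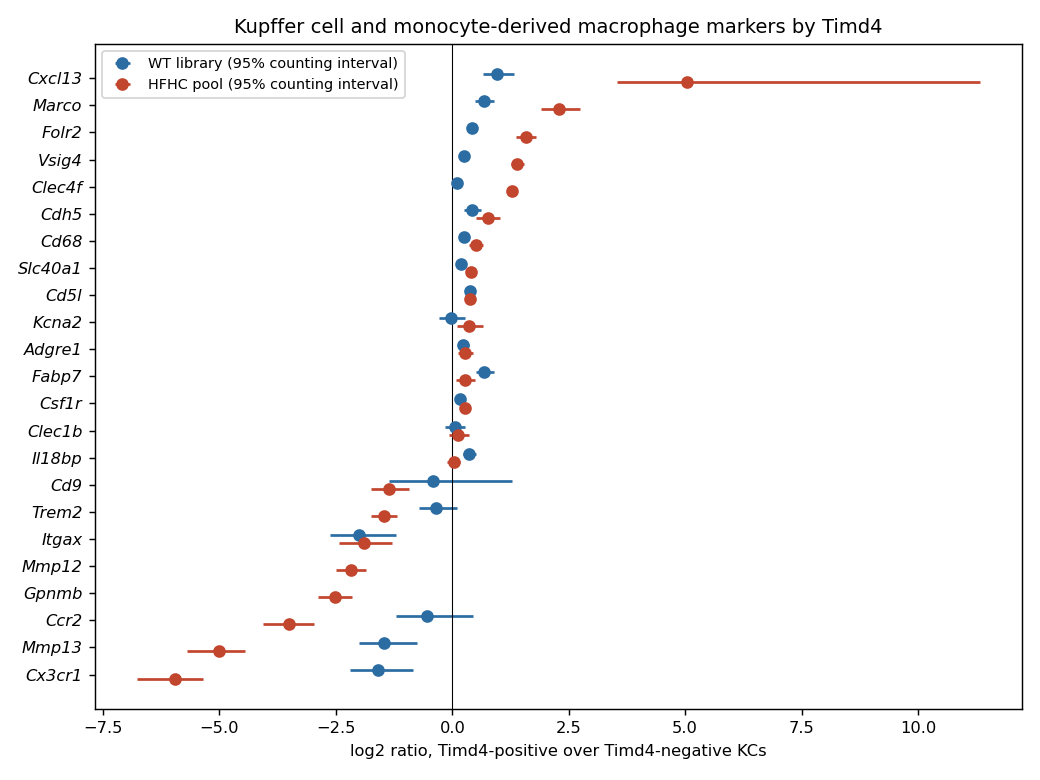
Log2 ratio of CPM, Timd4-positive over Timd4-negative KCs (horizontal axis, error bars are 95% counting intervals), for KC surface genes, markers of monocyte-derived macrophages, Cxcl13 and Mmp13, in the WT library (blue) and the HFHC pool (red). The pool points of Cx3cr1 (-5.96), Mmp13 (-5.02) and Ccr2 (-3.50) lie far to the left, those of Marco (2.29) and Cxcl13 (5.03) to the right, and the WT points of most surface genes lie near 0.

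Between the members of the 2 libraries, 3.21% of 8911 genes with at least 100 UMIs in both together were at least 2-fold higher in the pool and 4.38% at least 2-fold lower, with a median ratio of -0.04 and 46.5% of genes higher. Many of these genes had like ratios in other cells. Of the 229 higher genes with a ratio in at least 2 of 4 other classes (B cells, T cells, endothelial cells and classical monocytes), 147 were at least 2-fold higher in at least 50% of them and 64 in none. Of the 314 lower ones, 111 and 148 were. Gnb2, a G protein subunit, was at 21.5 and 265 CPM in members (log2 3.62), and its ratio was 4.92 in B cells, 3.78 in T cells, 3.60 in endothelial cells and 4.23 in classical monocytes.

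The 12 surface genes that the rule did not use stayed within 2-fold between the libraries, 8 higher and 4 lower in the pool, with a median ratio of 0.15. The potassium channel Kcna2 had the highest ratio of the list (log2 0.99), followed by Clec1b, the receptor CLEC-2, at 329 and 572 CPM (0.80), and the receptor Csf1r had the lowest (-0.44). Marco was at 547 and 646 CPM (0.24), a ratio that became 1.12 with stricter markers of other types and 1.04 in cells of 2000 to 6000 UMIs. The 3 C1q genes, which form 1 protein that tags dying cells, did not go the same way. C1qa was at 1062 and 2800 CPM (log2 1.40), C1qb at 7699 and 5450 CPM (-0.50) and C1qc at 7471 and 5819 CPM (-0.36).

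Of 18 KC transcription factors, 6 were higher in the pool and 3 were at least 2-fold lower. These were Cebpb, a factor of inflammatory and metabolic genes, at 1261 and 373 CPM (log2 -1.76), the retinoid receptor Rxra at 360 and 151 CPM (-1.25) and Maf at 2068 and 939 CPM (-1.14). Cebpb was lower in the other classes too, with ratios from -2.18 in B cells to -0.64 in classical monocytes. The median of the factor list was -0.13 in members and -0.77 in B cells. It was -0.33 in T cells, -0.22 in endothelial cells and -0.15 in classical monocytes. The glucocorticoid and circadian list held 6 of 15 genes at least 2-fold lower and 2 at least 2-fold higher, beside 4.38% and 3.21% of all genes. Its median was -0.31 in members, 0.29 in B cells (4 genes), -0.10 in T cells, -0.66 in endothelial cells and -0.41 in classical monocytes. Tsc22d3, which encodes the glucocorticoid-induced protein GILZ, was at 366 and 69.5 CPM (-2.39), Fkbp5 at 121 and 24.4 CPM (-2.29), Klf9 at 136 and 15.04 CPM (-3.14) and Ddit4 at 125 and 7.69 CPM (-3.96). Ddit4 had ratios from -1.59 to -1.39 in T cells, endothelial cells and classical monocytes.

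Genes of lipid-associated macrophages were mostly higher in the pool. Of 17 genes 14 were higher in the pool and 8 at least 2-fold, beside 46.5% and 3.21% of all genes. The median was 0.92, beside medians of -0.78 in B cells, -0.04 in T cells, 0.07 in endothelial cells and 0.21 in classical monocytes. Summed over the list, in which Apoe and Ctsb have the most UMIs, the levels were 33440 and 34635 CPM in the members, 32750 and 41987 CPM in Timd4-negative KCs, and 18920 and 27248 CPM in C1q macrophages. Ctsd, a lysosomal protease, was at 183 CPM (176 to 191) and 1099 CPM (1062 to 1137), and was detected after thinning in 28.5% and 86.4% of members. Its ratio was 2.58 in members, 2.04 in T cells and 3.15 in classical monocytes. The tetraspanin Cd9 was at 8.64 and 69.5 CPM (log2 3.003), detected after thinning in 1.70% and 11.8% of members (4.25% and 36.6% unthinned), with ratios of -1.34 to -0.06 in these 4 classes. In Timd4-negative KCs, Cd9 was at 9.91 CPM (6 UMIs) and 177 CPM (68 UMIs). Trem2, a lipid receptor, was at 71.1 and 134 CPM (0.92), and the lipid droplet protein Plin2 at 109 and 263 CPM (1.27).

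Gpnmb and Mmp12, which had ratios of 5.71 and 4.81, among the highest 3 of genes with at least 10 UMIs in each library, were carried by few members. Gpnmb UMIs were in 30 of 279 pool members and 2 of them held 50% of the 147, and Mmp12 UMIs were in 27, with 50% of the 230 again in 2. Egr2, an immediate-early factor and the other of these 3 (4.89), was in 41 pool members. The Timd4-negative KCs, which are not among the classes plotted, went the same way as the members for Gpnmb, with 0 CPM in the WT library and 283 CPM in the pool, and for Cd63, a tetraspanin of late endosomes, with 4.96 CPM (3 UMIs) and 260 CPM. Cd63 was at 3.70 and 45.4 CPM in the members.

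The higher levels of Colec12 and Tfrc were spread over more members. Colec12, a scavenger receptor, was at 19.2 CPM (17.0 to 21.7) in the WT library and 131 CPM (119 to 145) in the pool (log2 2.77), detected after thinning in 3.09% (2.41 to 3.89) and 21.5% (16.8 to 26.8) of members and unthinned in 8.64% and 43.4%. Tfrc, the transferrin receptor that imports iron, was at 17.1 CPM (14.95 to 19.4) and 83.5 CPM (73.5 to 94.6) (2.29), detected after thinning in 2.86% (2.21 to 3.64) and 12.2% (8.59 to 16.6). Tfrc had ratios of -0.09 in B cells, 0.07 in T cells and -0.42 in classical monocytes. Ftl1, the light chain of the iron store ferritin, was at 2606 and 5847 CPM in members (1.17) and higher in the other 4 classes as well (1.52 to 2.13).

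**Figure D4:**
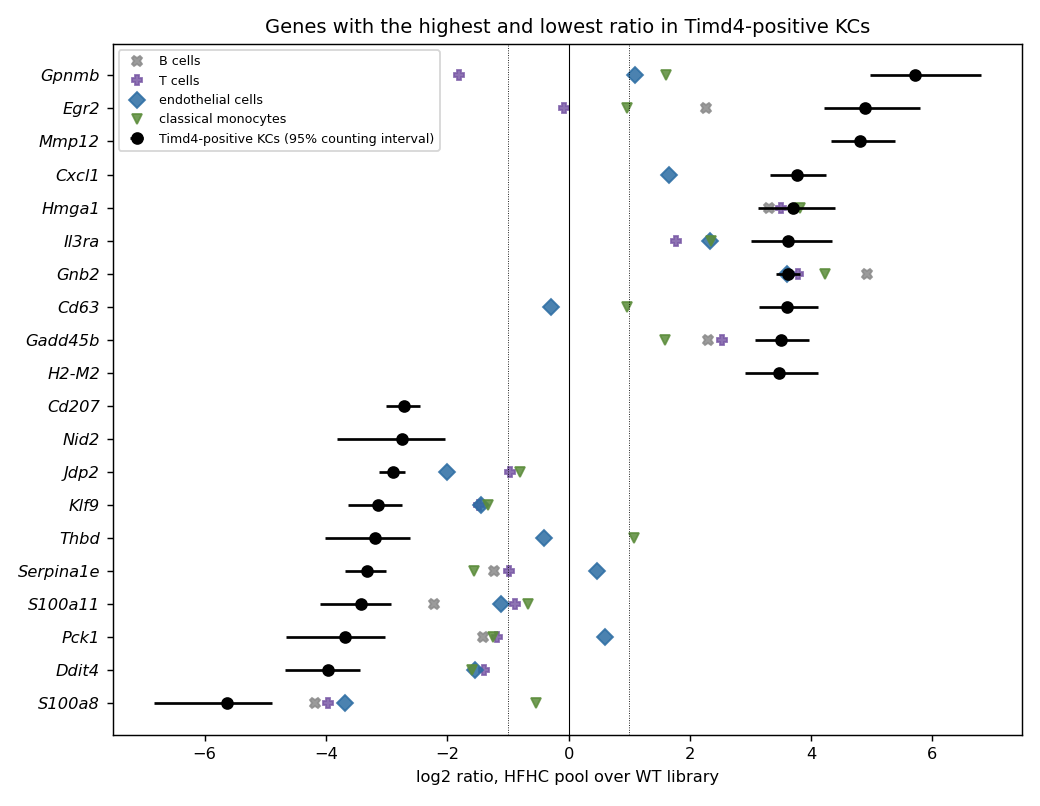
Log2 ratio of CPM, HFHC pool over WT library (horizontal axis), for the top 10 and bottom 10 genes by their ratio in Timd4-positive KCs (black, 95% counting intervals), among genes with at least 10 UMIs in these cells of each library. The same ratio is shown in B cells, T cells, endothelial cells and classical monocytes where a gene had enough UMIs. Gnb2 and Hmga1 lie together in all classes, while Gpnmb (5.71), Cd63 (3.60) and Thbd (-3.20) lie apart from the classes plotted.

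Immediate-early and heat-shock genes, which cells switch on when tissue is dissociated, were higher in the pool in each of the 5 classes compared. Of 22 genes 21 were higher in the pool and 11 at least 2-fold, beside 46.5% and 3.21% of all genes. The median was 0.94 in members, 2.08 in B cells, 0.96 in T cells, 1.36 in endothelial cells and 1.51 in classical monocytes. Egr1 was at 68.4 and 657 CPM, Fos at 585 and 1389 CPM and Hspa1a at 133 and 573 CPM. Of 23 cytokines and chemokines, 15 were higher in the pool, 6 of them at least 2-fold, and 3 were at least 2-fold lower. Tnf was at 11.5 and 62.8 CPM (log2 2.45), the neutrophil chemokine Cxcl2 at 47.4 and 339 CPM (2.83) and Il1rn, the antagonist of IL-1, at 35.1 and 187 CPM (2.41), while Il1b was at 282 and 245 CPM (-0.20). The lower ones were Csf1 (log2 -2.27), Pf4 (-1.88) and Bmp2 (-1.24), of which Csf1 had 5 UMIs in the pool. In the pool 9 members held 50% of the 1013 Cxcl2 UMIs, 6 members 50% of those of Tnf and 9 members 50% of those of Il1rn. The part of dissociation in these values was not tested.

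Of the lists bearing on the study's question, cell death and glucose use in KCs, no gene of apoptosis promotion or glycolysis passed 2-fold in either direction, beside 3.21% and 4.38% of all genes. In lists of this size such shares amount to few genes. Of 20 pro-apoptotic genes 5 were higher in the pool (median -0.15), with the BH3 gene Pmaip1 at 55.2 and 98.6 CPM and the pore former Bax at 136 and 103 CPM. Of 12 inhibitors of apoptosis 8 were higher (median 0.15). Bcl2 passed 2-fold, with 4.94 and 29.4 CPM. Of 17 genes of necroptosis and pyroptosis 11 were higher (median 0.25) and 3 at least 2-fold, namely Tnf, the DNA sensor Aim2 (log2 1.05) and the inflammasome sensor Nlrp1b (1.35, 73 and 40 UMIs), and 0 were 2-fold lower. Of 16 ferroptosis genes 9 were higher (median 0.18) and 3 at least 2-fold, namely Gpx4, which reduces lipid peroxides, at 21.2 and 113 CPM (2.42), Tfrc and Ftl1. Gpx4 was also higher in the other 4 classes (2.43 to 2.87). Of 16 glycolysis genes 12 were higher (median 0.41), with Gapdh at 696 and 1060 CPM and Pgk1 at 127 and 163 CPM. Eno1 had the highest ratio, at 83.6 and 165 CPM (log2 0.98), just under the limit. The list's medians were 0.09 in B cells, 0.06 in T cells, 0.53 in endothelial cells and 0.31 in classical monocytes. Only 4 of 8 glucose transporters had enough UMIs. Slc2a1, the transporter GLUT1, was at 23.2 and 18.7 CPM. Slc2a3 was at 9.01 and 1.67 CPM (log2 -2.18), on few UMIs in the pool, and was the only 1 of these 4 past 2-fold.

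Chil1, the gene deleted in the mice that make up part of the pool, was almost not found in the members. The WT members held 53 UMIs in 36 of 2234 cells (1.61%), or 3.85 CPM (2.88 to 5.03). B cells of the same library, at a median of 2692 UMIs against 5684 in the members, held a UMI in 6.32% of cells. T cells held one in 2.65% and classical monocytes in 1.99%. The share was 1.14% in Timd4-negative KCs and 1.30% in C1q macrophages, on 2 and 1 cells with a UMI. Whether the members' UMIs are background was not tested. Cells with at least 50 S100a8 and S100a9 UMIs stood at 340 CPM. The pool members held 0 UMIs in 279 cells, for which a floor of 3 counts, used here in place of an interval, gives a limit of 1.08% of cells with a UMI. No difference in Chil1 between the members of the libraries is read from these values.

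**Figure D5:**
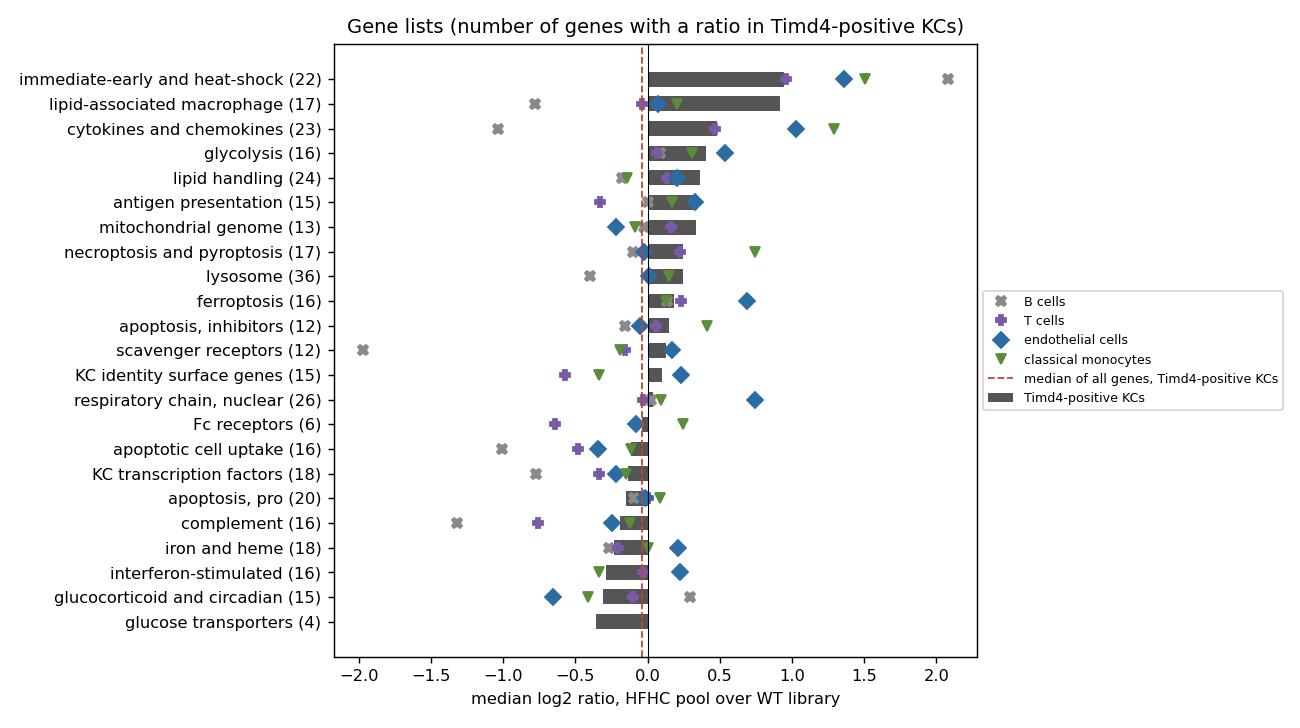
Median log2 ratio, HFHC pool over WT library, of each gene list in Timd4-positive KCs (grey bars, number of genes with a ratio in brackets) and in 4 other classes (symbols, where at least 4 genes had a ratio), with the median of all genes in the members (dashed red line, -0.04). The bar of immediate-early and heat-shock genes (0.94) is at or below that of all 4 other classes, and that of lipid-associated macrophage genes (0.92) lies above them.

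Cells of the pool over the gene limit, which are the larger part of Timd4-positive KCs there, had C1qa at 2503 CPM (2800 in the members), Ctsd at 1412 CPM (1099), Tfrc at 82.6 CPM (83.5) and Trem2 at 124 CPM (134). Colec12 was at 203 CPM (131), Cd9 at 94.9 CPM (69.5) and Gpnmb at 106 CPM (49.1), higher than in the members. Chil1 had 1 UMI in all 455 cells. The lowest ratios of the pool over the WT library were taken among genes with at least 10 UMIs in the members of each. S100a8 led them (log2 -5.64, 183 and 3.34 CPM). They were shared in part by other classes, with -4.19 in B cells and -3.97 in T cells for S100a8. Serpina1e and Pck1, genes of hepatocytes, were at 261 and 25.7 CPM and at 64.4 and 4.68 CPM. Jdp2, a repressor of the AP-1 family, was at 447 and 59.5 CPM (-2.90), with -2.01 in endothelial cells, -0.96 in T cells and -0.79 in classical monocytes.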

How the data were processed

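Per the file headers, the counts come from the BD Rhapsody WTA Analysis Pipeline 1.10.1 on GENCODE vM19 (GRCm38), run by the authors. The deposited values are counts of error-corrected UMIs per gene and called cell, neither filtered nor scaled. All columns of genes were used, and a tag library of the pool was not analysed here. The WT library held 53720863 UMIs in 30734 cells and the pool 71981673 UMIs in 21601 cells.

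Members were selected by the stated rule. CPM were taken from UMIs summed by class. Log2 ratios had 1 UMI added to each sum and were taken for genes that reached 100 UMIs over the compared groups, and a 2-fold ratio is the limit used throughout. Intervals of shares are exact binomial and those of CPM exact Poisson. UMIs from PCR copies are collapsed, but the intervals cover counting error only. Thinning drew 2000 UMIs per cell (seed 42). Other classes were set by marker UMIs. No doublet caller was run; the limit on other-type markers is the only guard. Counts of UMIs do not correct for gene length, so levels are compared between cells, not between genes. The ratios were tested on simulated data with known folds.

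The members and lists were chosen with earlier results of these data known. Named genes were those of the rule and lists, Chil1, the 15 highest ratios over other cells per library, the 10 highest and 10 lowest of the pool over the WT library with at least 10 UMIs in each, the 5 highest and 5 lowest of Timd4-positive over Timd4-negative KCs, and those of highest variance over mean. The Marco classes and their genes were added after the values were seen, as was the choice of motifs. Alternatives changed the limits on UMIs, upper gene number, mitochondrial share, Clec4f and Vsig4, Timd4 and other-type markers, thinning, scaling, averaging and the UMI minimum. The limit on cycle genes and the minimum of 200 genes were not varied. Software was Python 3.11.15, numpy 2.4.6, scipy 1.17.1, pandas 2.3.3 and matplotlib 3.10.9.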

Additional observations from a re-analysis of the deposited data

Results flagged for a closer look

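Only the genes of the lists and the named genes were screened here. For 6 of them the members stood at least 2-fold above the comparison cells in the HFHC pool and at least 2-fold below them in the WT library. The share of all genes that did so was not taken. Egr2 and H2-M2 were among the 10 highest ratios of the pool over the WT library. Prg4, Alox15 and Ccl5 were among the 10 of highest variance over mean in the pool members. These places rest on the same values, so that the differences describe the genes and give no separate support. With 1 library on each side none of these differences was tested. Over the other cells, Tfrc had a log2 ratio of -1.22 in the WT library and 1.26 in the pool (difference 2.48), and its level in the members was 17.1 and 83.5 CPM. Egr2 had -2.56 and 1.02 (difference 3.58), with 50% of its 115 UMIs in the pool members held by 7 cells. H2-M2, a nonclassical class I gene, had -2.16 and 1.56 (difference 3.72), with 86 UMIs in 17 pool members. Alox15 had -4.16 and 3.39 (difference 7.55), and all 65 of its UMIs in the pool members came from 1 cell. Prg4 had -6.24 and 2.01 (difference 8.24), with 158 of 161 UMIs in 1 pool member. Over Timd4-negative KCs, the chemokine gene Ccl5 had -1.03 and 2.04 (difference 3.06), with 55 of its 222 UMIs in 1 pool member.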

How the results depend on the processing

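The member share moved in 11 of its 14 recomputed values. It was 16.6% in the WT library and 2.35% in the pool with a minimum of 1000 UMIs, 30.5% and 2.80% with a mitochondrial limit of 10%, 13.8% and 1.36% with stricter other-type markers, and 19.0% and 0.716% in cells of 2000 to 6000 UMIs. It was 7.77% in the pool with no upper limit on genes, 26.3% in the WT library with at least 20 Clec4f and Vsig4 UMIs and 24.3% there with at least 2 Timd4 UMIs. The Timd4 share was 92.7% and 87.7% on all UMIs, 71.6% and 65.5% in cells of 2000 to 6000 UMIs, and 65.5% in the pool with stricter markers. Genes at least 2-fold higher than in the other cells were 3.43% in the WT library with stricter markers, 16.1% in the pool in cells of 2000 to 6000 UMIs, and 11.5% and 16.6% when ratios were scaled by their median. Over Timd4-negative KCs, cells of 2000 to 6000 UMIs gave 0.431% higher and 0.606% lower in the WT library and 0% lower in the pool, thinning gave 1.58% lower in the WT library, and a minimum of 20 UMIs gave 11.1% lower in the WT library and 4.93% higher and 7.05% lower in the pool. For the pool over the WT library, cells of 2000 to 6000 UMIs gave 5.80% higher and 7.75% lower, and a minimum of 20 UMIs 4.82% and 6.90%. Of the immediate-early and heat-shock list 100% was higher with no upper limit on genes, with scaling by the median and without mitochondrial genes in the total, and 70.0% in cells of 2000 to 6000 UMIs. Glycolysis genes were 93.3% higher with stricter markers, and glucocorticoid and circadian genes 11.1% with stricter markers and 12.5% with thinning, against 40.0% as reported.

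Among named genes, the ratio over Timd4-negative KCs turned to -0.75 for Cxcl9 (pool, no upper limit on genes), 0.34 for Slamf7 (WT library, mitochondrial limit of 10%) and 0.013 for Itgax (WT library, at least 20 Clec4f and Vsig4 UMIs). The ratio over other cells in the WT library turned to -0.51 for Hba-a1, -1.39 for Hba-a2 and -1.64 for Hbb-bs with stricter markers. Of the 340 recomputed ratios of named genes between the pool and the WT library, 27 moved by a set step on the log2 scale and 0 were reversed. Only ratios of at least 2-fold as reported could be called reversed. The causes were not tested. No paired analysis was possible because only 1 library stands on each side.

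Cells of 2000 to 6000 UMIs left 1213 members in the WT library and 46 in the pool. The pool's 39 Timd4-negative KCs set the precision of every ratio against them. Genes with few UMIs can rest on 1 or 2 cells, and 1 library on each side gives no spread between mice.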
